A study of Mus musculus with 6 samples.

Results

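Integrins and tetraspanins, 51 genes in all, were compared between mouse embryonic fibroblasts of 2 genotypes among 22180 genes with a usable probe set. Members were chosen by gene symbol, under a rule set with earlier results of these data known. They were 17 integrin alpha subunits, 8 integrin beta subunits and 26 tetraspanins, of which 7 carry CD names (Cd9, Cd37, Cd53, Cd63, Cd81, Cd82 and Cd151). Itga10 and Tspan7 also match by symbol but had no probe set assigned to a single gene and were not analysed here. The cells were wild type (Pax7+/+) or homozygous for loss of Pax7 (Pax7-/-), a transcription factor with a paired domain and a homeodomain, best known from satellite cells of muscle. Both genotypes came from an F1 cross of C57Bl6N and 129Sv mice, were grown in DMEM with serum and antibiotics, and were collected at confluence. Each genotype had 3 Affymetrix arrays, numbered as biological replicates 1 to 3. The labels do not tell how the allele was made, how old the embryos were or whether a number stands for an embryo, a pool or a culture. Unless said otherwise, p-values rest on how far differences vary between pairs of equal replicate number, a spread that may be technical. Shifts between replicates that both genotypes share are left out of it. All values below are log2 signals of probe sets, and all differences are knockout minus wild type on the log2 scale. Signals of different probe sets are not comparable as amounts of RNA, so members are compared only with themselves across arrays.

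Integrins are receptors made of an alpha and a beta subunit that span the plasma membrane, bind matrix proteins such as fibronectin, collagen and laminin outside the cell and couple to actin through talin, kindlin and vinculin inside it. The alpha subunit largely sets which ligand is bound, and in fibroblasts most alpha subunits pair with Itgb1. Tetraspanins are small membrane proteins that cross the membrane several times and gather partners, integrins and ADAM proteases among them, into membrane domains. Cd151 binds the laminin-binding integrins directly, and tetraspanins of the TspanC8 group escort the protease Adam10 to the cell surface.

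In these fibroblasts, 40 of the 51 members lay above background in at least 1 genotype, and no member passed the test between genotypes. Background was taken on each array as the signal below which 95% of 1394 odorant and vomeronasal receptor genes lay (4.63 to 5.44). The members that differed most were Itga8, an alpha subunit that binds the RGD motif of matrix proteins such as nephronectin, at -0.66 (limma SE 0.10, n = 3 pairs), and Cd151, at 0.55 (SE 0.09). Both had the same sign in all 3 pairs of equal replicate number, and both stayed above the threshold of 0.05 after adjustment over all genes (limma with the replicate number as a block, Benjamini-Hochberg adjusted p = 0.0827 for Itga8 and 0.0908 for Cd151). Both passed under other planned settings, with genes at background left out (adjusted p = 0.0368 and 0.0461) and with a trended, robust prior (0.0461 and 0.0465), and neither passed without the block (adjusted p = 1.00 for both). For the remaining members above background, differences ran from -0.35 (Itga1) to 0.35 (Itga6).

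Promoter sequences are shown for these 2 members because their differences were the largest and had opposite signs. They are the 250 bases before the first start site that the RefSeq table lists for the gene (build GRCm38.p6), written 5′ to 3′ on the gene's own strand. Capitals mark matches on either strand to TAAT, the core bound by homeodomains, or to GTCAC, a core bound by paired domains. Itga8 lies on the minus strand at chr2:12301945-12302194, and Cd151 on the plus strand at chr7:141467112-141467361.
Itga8: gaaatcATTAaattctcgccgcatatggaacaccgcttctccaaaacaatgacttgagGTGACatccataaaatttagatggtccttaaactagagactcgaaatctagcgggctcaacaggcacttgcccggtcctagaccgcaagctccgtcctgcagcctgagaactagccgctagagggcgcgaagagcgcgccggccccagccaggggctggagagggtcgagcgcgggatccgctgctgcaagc
Cd151: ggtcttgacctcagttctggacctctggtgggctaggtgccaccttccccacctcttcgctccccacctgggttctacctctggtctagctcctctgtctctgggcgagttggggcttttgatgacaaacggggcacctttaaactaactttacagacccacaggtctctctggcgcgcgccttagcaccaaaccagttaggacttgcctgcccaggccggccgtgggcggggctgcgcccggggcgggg
The Itga8 stretch held 1 match to TAAT and 1 to GTCAC, and its GC content was 56.4%. The Cd151 stretch held 0 matches to either, with a GC content of 62.4%; the table lists 2 starts for Cd151. Among 16990 promoters of tested genes, 50.1% held TAAT and 40.3% held GTCAC. Among the 42 members with an entry, 19 (45.2%) held TAAT and 14 (33.3%) held GTCAC. Such matches describe the letters only.

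The arrays themselves separated into replicate 3 and the rest more than by genotype. Both replicate 3 arrays correlated with each other at 0.992 over genes, the other 4 among themselves at 0.988 to 0.990, and arrays across that divide at 0.814 to 0.844. The interquartile range of gene signals was 2.98 and 3.02 on replicate 3 and 1.61 to 1.69 on the others. Pax7 itself read 6.14, 5.65 and 4.88 in wild type and 6.17, 5.95 and 5.05 in knockout, a difference of 0.16 (adjusted p = 0.804), and where its probe set lies against the deleted part is unknown here. Titles name fibroblasts, while a label of the cell type gives ESCs. All 9 fibroblast markers lay above background, with a mean signal of 9.09 to 9.90 on wild type and 8.68 to 9.56 on knockout arrays. Of 7 pluripotency markers 2 did (Pou5f1 and Dppa3), and Nanog and Sox2 did not. None of 4 lymphoid markers did. Of 8 leukocyte and macrophage markers 3 did (Csf1r, Cx3cr1 and Cd68) and Ptprc did not, with a mean of the 8 of 4.94 to 5.33 on wild type and 4.90 to 5.34 on knockout arrays. Of 5 endothelial markers Cdh5 alone did, with a mean of the 5 of 4.32 to 5.08 and 4.29 to 5.13. Dcn, 1 of the fibroblast markers, fell (-1.93, limma adjusted p = 0.000578). With it, 4 of the 9 were lower and 0 higher at an unadjusted p under 0.05 (Col3a1 at -0.40, Pdgfra at -0.36 and S100a4 at -0.26 beside Dcn), and 6 were lower and 0 higher in all 3 pairs. Over all genes, 3.45% were lower at an unadjusted p under 0.05 by limma and 13.8% were lower in all 3 pairs. Differences of the 6 skeletal muscle markers, 5 above background in at least 1 genotype, ran from 0.04 to 0.31 (median 0.19). Platelet, epithelial and smooth muscle markers had median differences of -0.0038, -0.01 and 0.03. The mean signal of the smooth muscle and pericyte list was 8.99 to 9.33 on wild type and 8.98 to 9.41 on knockout arrays. Ppbp of the platelet list, at 0.87 (limma adjusted p = 0.0578), had the largest rise of all genes. Whether the makeup of the cultures took part in any difference of a member was not tested. In RNA from whole cultures, fewer cells of a type and less RNA per cell cannot be told apart.

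**Figure D1:**
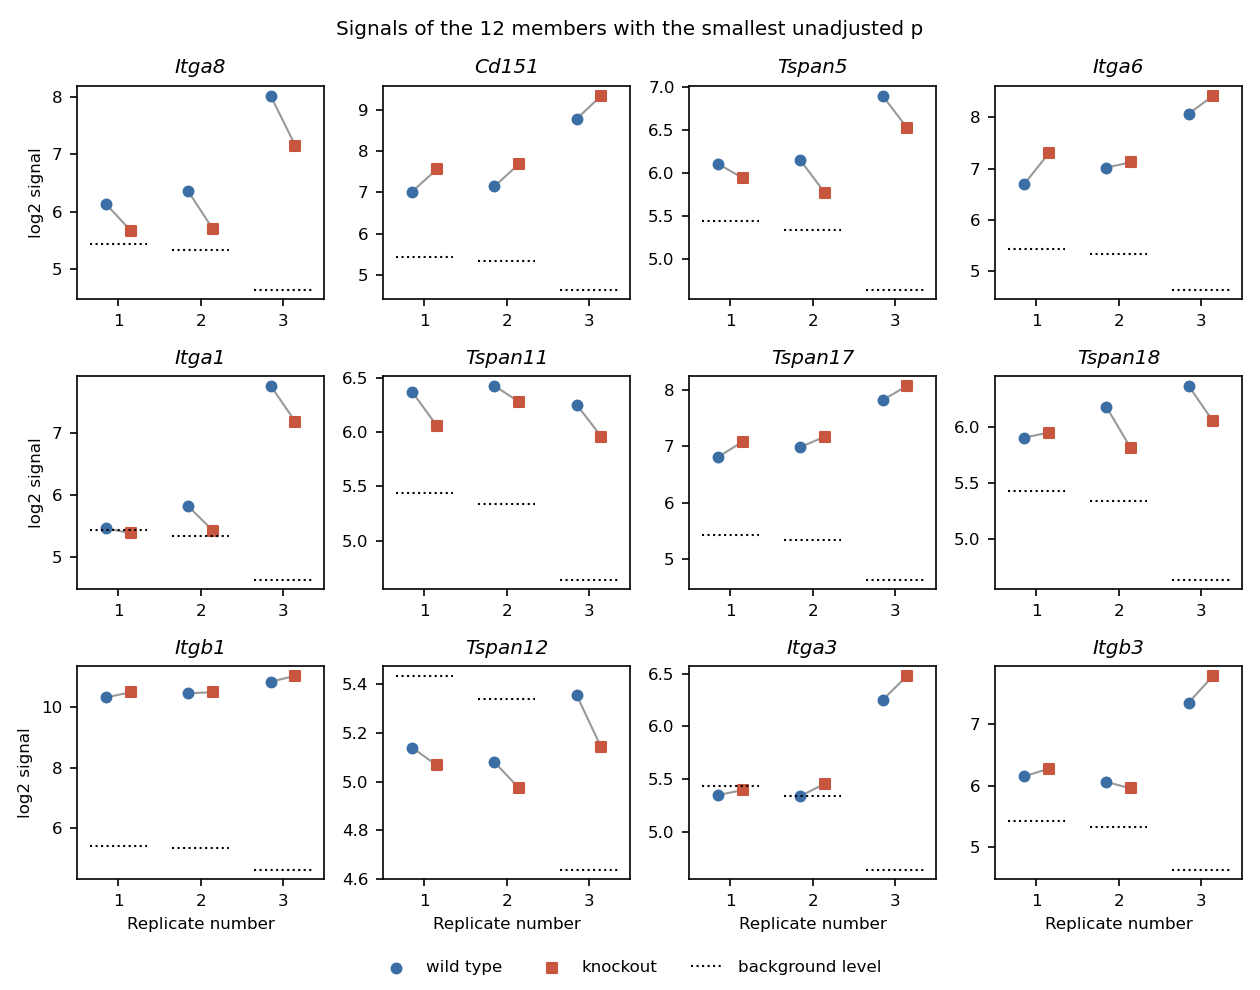
Log2 signal of the 12 members above background with the smallest unadjusted p, by replicate number, with wild type as circles, knockout as squares, lines joining arrays of equal number and dotted lines at the background level. Itga8 is lower and Cd151 higher in the knockout in each of the 3 pairs, while replicate 3 stands above replicates 1 and 2 in both genotypes for both genes.

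Integrin alpha subunits that bind RGD-containing ligands comprised Itga5, Itga8, Itgav and Itga2b, all above background in both genotypes. In the order of replicates 1, 2 and 3, Itga8 read 6.13, 6.35 and 8.02 in wild type and 5.67, 5.69 and 7.15 in the knockout. The knockout array was the lower of each pair, by 0.46, 0.66 and 0.87, yet the genotypes overlapped, since knockout replicate 3 exceeded wild type replicates 1 and 2. Knockout replicates 1 and 2 lay close to background, which was 5.43 and 5.34 there. The difference corresponded to a 1.58-fold lower mean signal (95% interval -0.90 to -0.43, unadjusted p = 0.000116 by limma). Without replicates 1, 2 and 3 in turn it was -0.76, -0.67 and -0.56, and it passed in the fit without replicate 1 (limma adjusted p = 0.00730; 0.0368 to 1.00 under the other alternatives).

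Itga5, the fibronectin receptor's alpha subunit, read 9.05, 9.23 and 9.79 in wild type and 9.16, 9.26 and 9.97 in the knockout. Its difference was 0.11 (SE 0.09). Itgav, which pairs with several beta subunits to bind vitronectin and latent TGF-beta, read 9.58, 9.74 and 10.39 in wild type and 9.71, 9.74 and 10.56 in the knockout, which differed by 0.10 (SE 0.09). For both genes the intervals, -0.09 to 0.32 for Itga5 and -0.11 to 0.31 for Itgav, did not reach the difference of Itga8. Itga2b, the platelet subunit, was at -0.04 (SE 0.11).

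Of the 3 collagen-binding alpha subunits measured, Itga1 differed most. Itga1, a receptor for collagen IV and other collagens, read 5.47, 5.82 and 7.77 in wild type and 5.39, 5.43 and 7.19 in the knockout. The knockout was lower in all 3 pairs, by 0.08, 0.39 and 0.58, but knockout replicate 1 lay below its background level of 5.43 and wild type replicate 1 only just above its own. The mean difference was -0.35 (SE 0.11, unadjusted p = 0.0112, limma adjusted p = 0.573). Itga11, a fibrillar collagen receptor of fibroblasts, read 7.64, 8.03 and 9.42 in wild type and 7.99, 7.90 and 9.46 in the knockout. Its pairs went both ways (0.35, -0.13 and 0.04), with a mean of 0.09 that turned to -0.05 without replicate 1. Itga2, a further collagen receptor, was at -0.05 (SE 0.10) and lay above background on 4 arrays.

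The laminin-binding alpha subunits Itga3, Itga6 and Itga7, the integrins to which Cd151 binds, were higher in the knockout in all 3 pairs each. Itga6 read 6.69, 7.02 and 8.07 in wild type and 7.30, 7.12 and 8.42 in the knockout. Its pair differences of 0.60, 0.10 and 0.35 averaged 0.35 (SE 0.11, 1.28-fold, unadjusted p = 0.0108, limma adjusted p = 0.573), and the genotypes overlapped. Itga3 read 5.35, 5.34 and 6.25 in wild type and 5.40, 5.46 and 6.48 in the knockout, which differed by 0.13 (SE 0.09). It lay near background in replicates 1 and 2, where only wild type replicate 2 and knockout replicate 2 exceeded it. Itga7 was at 0.11 (SE 0.09). None of the 3 passed, and the common sign was noticed after the values were seen; over all genes 13.8% were higher in all 3 pairs.

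Itga4 and Itga9, which form a subfamily of their own and bind fibronectin's alternative segments, VCAM-1 or tenascin, were at 0.03 (SE 0.09) and -0.01 (SE 0.09). Itga4 exceeded background only in replicate 3. The alpha subunits of leukocytes, Itgad, Itgae, Itgal, Itgam and Itgax, were not above background on any of the 6 arrays, so no difference is given for them.

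Of the beta subunits, 7 of 8 lay above background and 0 passed. Itgb1, the common partner of the collagen, laminin and fibronectin receptors, read 10.30, 10.44 and 10.82 in wild type and 10.47, 10.47 and 11.02 in the knockout. The knockout was the higher of each pair, by 0.17, 0.03 and 0.20, with a mean of 0.13 (SE 0.09, 95% interval -0.07 to 0.34). The interval did not reach the difference of its partner Itga8 (-0.66). Itgb5, a partner of Itgav, read 8.52, 8.79 and 10.02 in wild type and 8.74, 8.83 and 10.09 in the knockout, which differed by 0.11 (SE 0.09). Itgb3, the beta subunit of the vitronectin receptor, read 6.15, 6.06 and 7.34 in wild type and 6.27, 5.95 and 7.78 in the knockout. Its pairs went both ways and averaged 0.15 (SE 0.11). Itgb7 and Itgb8 were at 0.10 and 0.06, and Itgb4 and Itgb2 at -0.12 and -0.08. Itgb2, the beta subunit of leukocyte integrins, exceeded background in replicates 1 and 2 only and read lower on both replicate 3 arrays, by 1.24. Itgb6, an epithelial subunit, was not above background on any array.

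**Figure D2:**
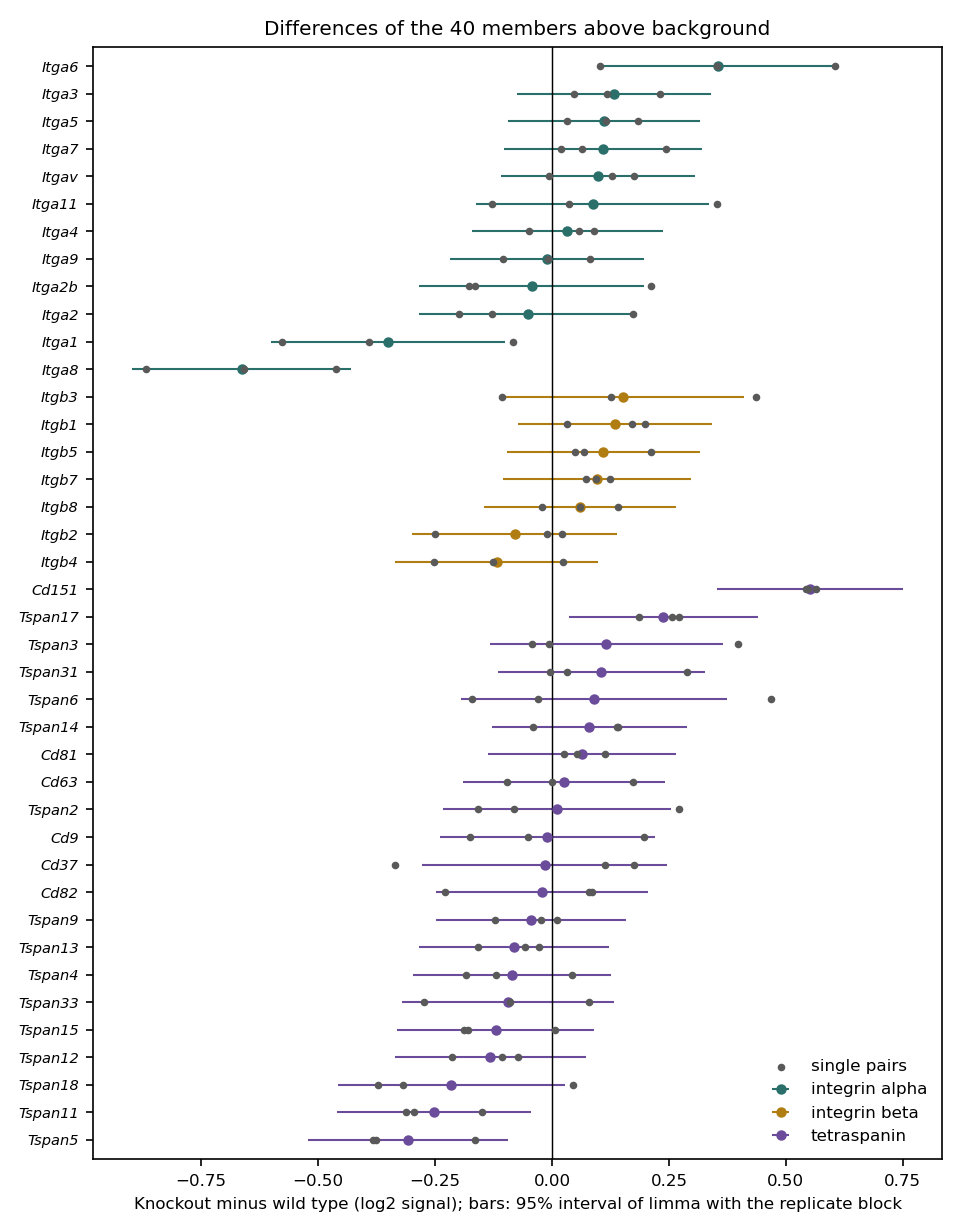
Knockout minus wild type difference in log2 signal for the 40 members above background, grouped into integrin alpha subunits, beta subunits and tetraspanins; coloured points are means of 3 pairs, bars the 95% intervals of limma with the replicate block, and small grey points the single pairs. Cd151 and Itga8 stand at 0.55 and -0.66, and the 3 pairs of Cd151 lie almost on top of each other.

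Among tetraspanins, Cd151 gave the most even difference of any of the 7 members with an unadjusted p under 0.05. Its signal read 7.02, 7.15 and 8.78 in wild type and 7.56, 7.69 and 9.35 in the knockout. The knockout array was the higher of each pair by 0.54, 0.55 and 0.56 (SD over pairs 0.01), a 1.47-fold higher mean signal, while the genotypes overlapped because replicate 3 stood 1.71 above the others. The 95% interval was 0.35 to 0.75 (unadjusted p = 0.000139, limma adjusted p = 0.0908). limma draws each gene's spread toward that of all genes, so its SE of 0.09 was larger than the pairs alone would give. Without replicates 1, 2 and 3 in turn the difference was 0.56, 0.55 and 0.54, and the adjusted p stayed between 0.0678 and 0.306.

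The other tetraspanins with CD names that are broadly expressed showed small differences. Cd81, which partners immune and integrin receptors, read 10.84, 10.84 and 11.04 in wild type and 10.96, 10.89 and 11.06 in the knockout, which differed by 0.06 (SE 0.09). Cd63, a marker of late endosomes and exosomes, read 9.73, 9.93 and 10.44 in wild type and 9.90, 9.83 and 10.44 in the knockout, which differed by 0.03 (SE 0.10). Cd9 and Cd82 were at -0.01 and -0.02, signs that turned with quantile normalization of the arrays. The intervals of these 4 genes lay within -0.25 and 0.27 and did not reach the difference of Cd151.

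TspanC8 tetraspanins, the Adam10 escorts, comprised Tspan5, Tspan10, Tspan14, Tspan15, Tspan17 and Tspan33, and those with the largest differences went opposite ways. Tspan5 read 6.10, 6.15 and 6.90 in wild type and 5.94, 5.76 and 6.52 in the knockout. The knockout was lower in all 3 pairs, by 0.17, 0.38 and 0.38 (mean -0.31, SE 0.09, unadjusted p = 0.00960, limma adjusted p = 0.557). Tspan17 read 6.81, 6.98 and 7.81 in wild type and 7.08, 7.17 and 8.07 in the knockout. Here the knockout was higher in all 3 pairs, by 0.27, 0.19 and 0.26 (mean 0.24, SE 0.09, unadjusted p = 0.0255, limma adjusted p = 0.677). Tspan14, Tspan15 and Tspan33 were at 0.08, -0.12 and -0.09 with pairs of mixed sign, and Tspan10 was not above background. Adam10 itself was at 0.12 (SE 0.10), with -0.06, 0.07 and 0.34 in the 3 pairs.

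Among the remaining tetraspanins, Tspan11 read 6.37, 6.43 and 6.25 in wild type and 6.06, 6.28 and 5.96 in the knockout. It was lower in the knockout in all 3 pairs (mean -0.25, SE 0.09, unadjusted p = 0.0221, limma adjusted p = 0.661), and only knockout replicate 2 reached into the wild type range. Replicate 3 did not stand apart for this gene (-0.18 against the others). Tspan18 read 5.91, 6.18 and 6.37 in wild type and 5.95, 5.81 and 6.05 in the knockout, with 1 pair at 0.05 and the others at -0.37 and -0.32. Tspan12, a co-receptor of Norrin signalling through Frizzled-4, was not above background in the knockout. It read 5.14, 5.08 and 5.36 in wild type and 5.07, 4.97 and 5.14 in the knockout, below background on replicates 1 and 2 of both genotypes, so no size is given.

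Tspan31, Tspan4 and Tspan3 were read far above background with pairs of mixed sign. Tspan31 read 9.27, 9.65 and 10.50 in wild type and 9.55, 9.68 and 10.49 in the knockout (0.11, SE 0.10). Tspan4, a protein of migrasomes, the vesicles left on retraction fibres, read 8.73, 8.61 and 9.09 in wild type and 8.55, 8.65 and 8.97 in the knockout (-0.09, SE 0.09). Tspan3 read 7.75, 7.83 and 8.47 in wild type and 8.15, 7.82 and 8.43 in the knockout (0.12, SE 0.11), and its difference came from replicate 1, without which it was -0.02. Tspan2, Tspan6, Tspan9 and Tspan13 lay between -0.08 and 0.09. Cd37, a tetraspanin of B cells, was at -0.02, with pairs of 0.11, 0.18 and -0.34, and turned positive with quantile normalization. Cd53 and Tspan32, both of leukocytes, and Tspan1 and Tspan8 were not above background in either genotype.

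Counted over the 51 members, 0 passed the test, where 0.0766% of all 22180 genes did (17 genes, limma with the replicate block). At an unadjusted p under 0.05 there were 3 higher (Cd151, Itga6 and Tspan17), beside 3.28% of all genes, and 4 lower (Itga8, Itga1, Tspan5 and Tspan11), beside 3.45%. Together they made up 13.7% of members, beside 6.73% of all genes. All 7 lay above background, where the share was 17.5% of 40 members beside 9.28% of 12360 genes. Without the block, limma called 0 genes (0%) and 0 members, and at an unadjusted p under 0.05 it held 0 members beside 0.0676% of all genes. In all 3 pairs 11 members were higher and 6 lower, beside 13.8% of all genes in each direction, and the genotypes did not overlap for 0 members (1.41% of all genes). The median difference was 0.03 over the members and -0.0018 over all genes, with member medians of 0.06, -0.01 and 0.02 in the 3 pairs. Of the 40 above background, 35 had a 95% interval within 0.5 of no difference on either side, and the others were Cd151, Itga1, Itga6, Itga8 and Tspan5. Intervals were not counted in this way over all genes.

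For 38 of the 40 members above background the difference of replicate 3 from replicates 1 and 2 was larger than that between genotypes. The same count over all genes was not made. Replicate 3 exceeded the mean of replicates 1 and 2 for 29 members and lay below it for 11, with a median of 0.58. Of all 12360 genes above background replicate 3 was the higher for 8455, with a median of 0.75. The distance was over 1 for 9 members, among them Tspan6 (2.13), Itga1 (1.95), Cd151 (1.71) and Itga8 (1.63), and below -1 for 4, Itgb2 (-1.24), Tspan33 (-1.09), Itgb4 (-1.04) and Cd37 (-1.02). Tspan6 read 6.47, 7.01 and 8.97 in wild type and 6.94, 6.84 and 8.94 in the knockout, so that its genotypes differed by 0.09 (SE 0.13) across a far wider replicate range. The median absolute difference over the 40 members was 0.75 between replicate 3 and the mean of replicates 1 and 2, and 0.10 between genotypes. With this range left in the error, the SEs of the same members ran from 0.15 to 0.86, against 0.09 to 0.13 with the block.

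**Figure D3:**
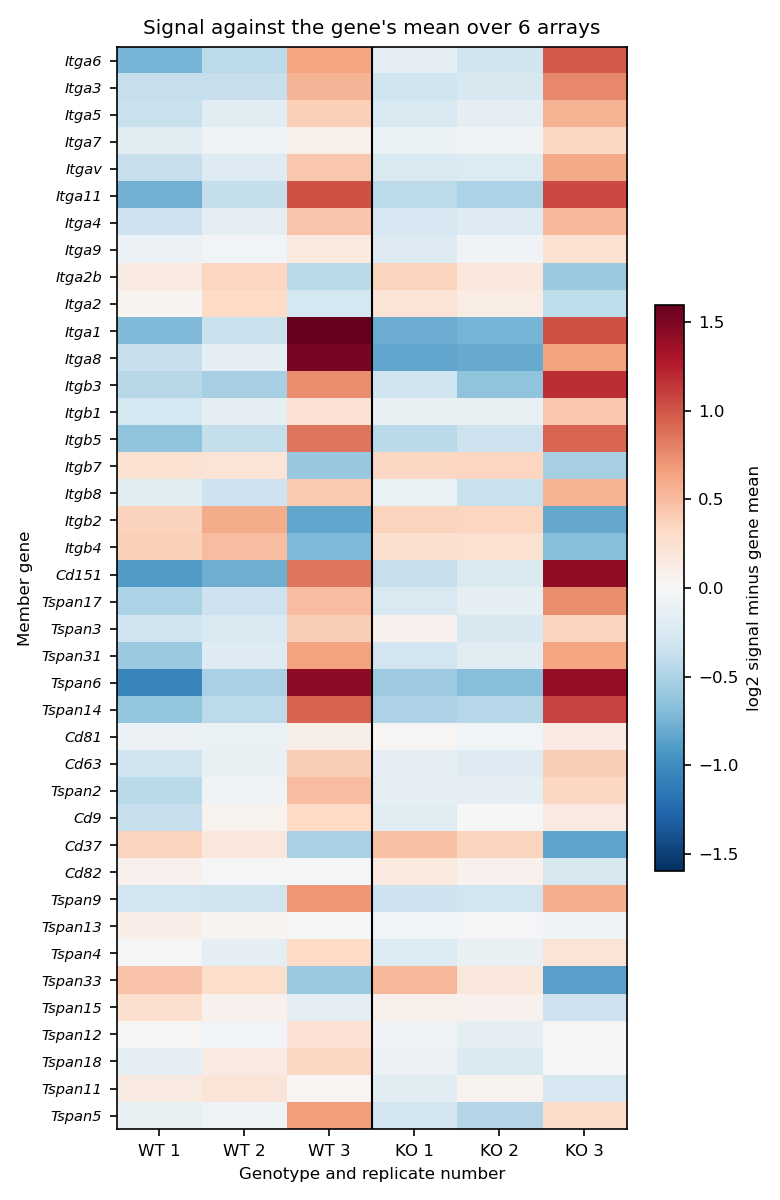
Log2 signal of each of the 40 members above background minus that gene's mean over the 6 arrays, with wild type (WT) and knockout (KO) replicates 1 to 3 as columns and red for above the mean, blue for below it. Both replicate 3 columns stand apart, as for Tspan6 (2.13 above replicates 1 and 2) and Itgb2 (1.24 below), whereas corresponding wild type and knockout columns look alike.

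**Figure D4:**
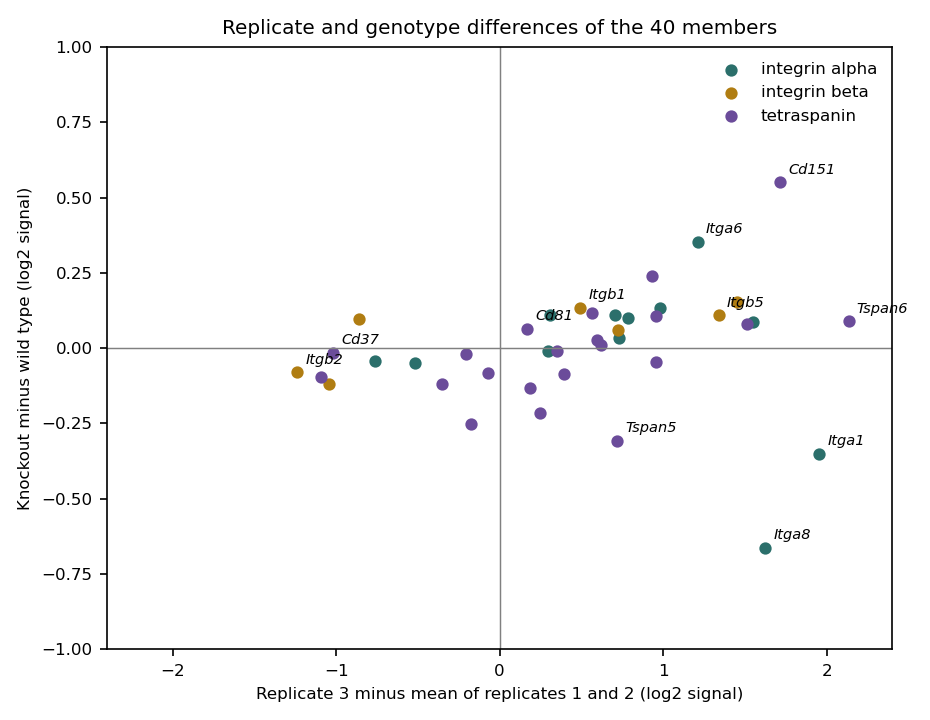
Each point is 1 of the 40 members above background, with the difference of replicate 3 from the mean of replicates 1 and 2 on the horizontal axis and knockout minus wild type on the vertical axis, both in log2 signal and averaged over the arrays. The points spread from -1.24 to 2.13 horizontally and from -0.66 to 0.55 vertically, and Itga8 and Cd151, at 1.63 and 1.71 horizontally, lie at the opposite vertical ends.

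Of 45 genes of the integrin adhesome, mostly cytoplasmic proteins that link integrins to actin and to signalling, 40 were measured and 35 lay above background. None passed with limma, and at an unadjusted p under 0.05 there were 2 higher (Fblim1 and Bcar1) and 2 lower (Kank2 and Itgb3bp), 4 of the 40 measured, beside 6.73% of all genes. Fblim1, the filamin-binding protein migfilin, read 5.49, 5.59 and 5.46 in wild type and 6.02, 5.95 and 6.03 in the knockout. It was higher in all 3 pairs without overlap (mean 0.48, SE 0.09, unadjusted p = 0.000547, limma adjusted p = 0.169), and its replicate 3 did not stand apart. Bcar1, the docking protein p130Cas, read 7.16, 7.46 and 8.76 in wild type and 7.71, 7.64 and 9.03 in the knockout, which differed by 0.33 (SE 0.10, limma adjusted p = 0.558). Kank2, which binds talin, was at -0.27 (SE 0.11), with pairs of -0.27, -0.49 and -0.04, and at -0.15 without replicate 2. Itgb3bp was not above background. Dab2, an adaptor of integrin endocytosis, was at -0.20 (SE 0.09, unadjusted p = 0.0504 by limma). The talins Tln1 and Tln2 and vinculin (Vcl) were picked after values were seen. Tln1 was at -0.09 (SE 0.10) and Vcl at -0.08 (SE 0.09). Tln2 was at -0.14 (SE 0.12), with pairs of 0.13, -0.44 and -0.10. The adhesome list had 8 genes higher and 7 lower in all 3 pairs (37.5% in all, beside 27.5% of all genes) and a median of -0.01.

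Of 17 partners of tetraspanins, 15 were measured and 10 lay above background. Of the 15, 0 had an unadjusted p under 0.05 by limma, beside 6.73% of all genes, and so few genes cannot show a lower share. Adam17, a sheddase related to Adam10, was at 0.21 (SE 0.10), with 0.36, 0.25 and 0.04 in the 3 pairs, and it exceeded background on 4 arrays. Cd44, the hyaluronan receptor, was at 0.15 (SE 0.09), with 0.11, 0.05 and 0.29 in the 3 pairs, and at 0.082 without replicate 3. Ceacam1, an adhesion molecule of the immunoglobulin family, was at -0.12 (SE 0.11) and rested on replicate 3 (pairs -0.04, 0.03 and -0.36), without which it was at -0.0047. Among 4 tetraspanins whose symbols fall outside the naming pattern, Upk1b of the urothelium was at -0.12 (SE 0.09) and Prph2 of photoreceptors at -0.02 (SE 0.10), while Upk1a and Rom1 were not above background.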

How the data were processed

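RNA from 6 samples was measured on 6 arrays. Each probe set has a log2 signal that the authors computed by RMA (background correction, normalization between arrays and summary of probes) in Partek, according to the submitters' processing notes. Neither version nor build was found in these sources, and the log base is inferred from values between 2.60 and 12.92. The arrays as deposited do not share 1 distribution, so how they were normalized to each other is not fully known. Of 41345 probe sets, 23521 had 1 gene in the platform annotation, 1814 had several and 16010 were not listed. For each gene the probe set brightest on average was kept. Genotypes were compared with limma 3.58.1 (R 4.3.3, lmFit, eBayes, two-sided), with replicate number as a block, over 22180 genes, and adjusted by Benjamini-Hochberg at 0.05. The method was tested on simulated data with shared replicate differences and changes of 1 and 2. That test does not cover smaller differences or arrays that are not paired. Deviations of equal-numbered arrays from their genotype's mean correlated at 0.920, 0.895 and 0.973, all above the bound of 0.1, but replicates 1 and 2 of opposite genotype did so too (0.910 and 0.898). Pairs were formed by the replicate number in the titles, and no label states that equal numbers belong together. Replicate 3 stands apart in both genotypes, so these correlations cannot tell how replicates 1 and 2 pair.

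A gene is called not above background in a genotype where all 3 of its arrays, or their mean, do not exceed that level. Full values are given for the 12 members with the smallest p and for the 5 integrins and 5 tetraspanins with the highest mean; other members are named by group. Of other lists, the 4 genes above background with the smallest p are named. Tln1, Tln2, Vcl, Adam10 beside its escorts, and Tspan6 were added after values were seen. Members, lists and rules were chosen with earlier results of these data known. Marker lists of platelets, epithelium, skeletal muscle and smooth muscle had 2 of 4, 3 of 5, 5 of 6 and 4 of 5 measured genes above background; those of leukocytes and endothelium had 3 of 8 and 1 of 5.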

Additional observations from a re-analysis of the deposited data

How the results depend on the processing

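With the replicate block 17 genes passed. No gene passed with no replicate block (0, and 0 in each of the 6 fits that also left out 1 array), 42 passed among 11049 genes above background on at least 3 arrays and 46 with a trended and robust prior, and leaving out a replicate number with the block kept gave 2 to 98 (98 without replicate 1, 2 without replicate 2 and 4 without replicate 3). Of the members, 2 passed (Cd151 and Itga8) with the background filter and with the trended prior, and leaving out a replicate number gave 0 to 1 (Itga8 without replicate 1). Fewer genes were tested under the filter; otherwise the cause was not tested. The median of the members was 0.026 and ran from -0.025 to 0.046 on leaving out a replicate number. Over the leave-outs, Itga11 ran from -0.046 to 0.195, Cd63 from -0.048 to 0.087, Tspan3 from -0.025 to 0.196 and Prph2 from -0.081 to 0.087, each turning sign without replicate 1. All 7 members with an unadjusted p under 0.05 kept their sign in all 10 settings. These were the replicate block, no block, a block of replicates 1 and 2 against replicate 3 (19 genes passed) and the background filter. The others were quantile normalization (15), the mean of probe sets (16), the trended prior and the 3 leave-outs. No label names a batch. Only quantile normalization could have turned a sign of these 7. The block, filter and prior leave the mean difference unchanged, each of the 7 had 1 probe set, and its 3 pairs shared 1 sign. Precision is limited by the number of arrays.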

Other observations

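Cd9 and Itgav each had 2 probe sets. The dimmer of Cd9 read 5.12, 5.09 and 4.06 in wild type and 4.83, 5.29 and 4.32 in the knockout, below background on every array, and that of Itgav read 4.33 to 4.64 over the 6 arrays, also below background on each. The partner Ptgfrn, a binding partner of Cd9 and Cd81 chosen after its values were seen, read 4.95, 5.19 and 7.92 in wild type and 5.02, 5.19 and 7.54 in the knockout, above background on the replicate 3 arrays alone.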
